A study of Caenorhabditis elegans with 12 samples.

Results

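The TRIM-NHL genes of *C. elegans* are *lin-41*, *ncl-1*, *nhl-1*, *nhl-2* and *nhl-3*. They were found by gene and transcript identifier among the worm entries of the quantification index, and all 5 of them, out of 46748 worm genes, were listed in each of the 12 RNA sequencing libraries. The libraries come from young adult worms and from a method called vIPR, in which RNA is crosslinked to its bound proteins in the living animal and 1 mRNA is then pulled down with biotinylated antisense DNA probes. The 7 elutions are the material that stayed on the probes, the 4 inputs are the lysates before pulldown, and 1 library is total RNA. Each group is a single library, so no difference here has a replicate check, and the intervals given (95%) cover the error of counting reads only. Reads from PCR-amplified libraries are not independent molecules.

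In strain DG3913 the *lin-41* gene itself is tagged with *gfp*, and its elution and input were made after UV crosslinking on plates (cXL). Strain BS1080 carries a *gld-1::gfp* transgene. It has an elution and an input with cXL, an elution after paraformaldehyde crosslinking (PFA-XL) of worms that the methods place on plates, and an elution and an input from worms grown in liquid culture with the photoreactive nucleoside 4-thiouridine (PAR-XL). Its total RNA library is titled PAR-XL too but described as not crosslinked, and how these worms were grown is not stated separately. *gfp* probes were used for all elutions of these strains. N2, the wild type, has 1 cXL input and 3 cXL elutions, with probes to its own *gld-1*, *lin-41* and *alg-1*. PFA-XL has no input of its own here and was set against the PAR-XL input, although its worms were grown like those of cXL, and PAR-XL input and elution came from separate pulldowns. PAR-XL, PFA-XL and cXL libraries therefore differ in growth and handling as well as in crosslinking, and these cannot be told apart.

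TRIM-NHL proteins combine an N-terminal tripartite motif, often with a RING finger, with C-terminal NHL repeats that fold into a propeller and in several members bind RNA. In *C. elegans*, LIN-41 acts in developmental timing, where the *let-7* microRNA represses its mRNA through sites in the 3′ UTR, and in the germline, where it holds oocytes back from premature maturation and differentiation. NCL-1 limits nucleolar size and ribosomal RNA production, and NHL-2 is a cofactor of microRNA silencing. The roles of NHL-1 and NHL-3 are less well described.

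In WBcel235, the build of the index, *lin-41* (WBGene00003026) lies on chromosome I at 9334850 to 9342496, minus strand, with 4 transcript models. *ncl-1* (WBGene00003559; III, 7731387 to 7738067, plus strand), *nhl-1* (WBGene00003597; III, 9147389 to 9153890, minus strand) and *nhl-2* (WBGene00003598; III, 4894647 to 4899085, minus strand) have 1 model each. *nhl-3* (WBGene00003599; II, 595204 to 602120, minus strand) has 3. The 3′ end of *nhl-1* overlaps the opposite-strand gene ZK512.8, which had 34 estimated counts in the N2 input. No other annotated gene of the index overlaps a member.

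Estimated worm counts without ribosomal RNA numbered 282487 to 18010700 in the elutions and 12238800 to 26861000 in the inputs and total RNA. In the elutions human carrier RNA took 66.6 to 96.5% of all TPM (transcript levels corrected for length and scaled to a fixed sum). All TPM below were rescaled to sum to 1000000 over worm entries without ribosomal RNA. In an elution the captured mRNA alone took 17.6 to 59.0% of this sum, which lowers every other gene, and the median gene stood at an elution over input ratio of 0.228 to 0.473. A ratio near 1 in an elution therefore lies above most genes, and whether it falls above or below 1 depends on the scaling. Above 1 in every scaling tried (CPM, which are counts scaled to library size and not to length, ribosomal RNA kept, and others) were *lin-41* as target and with *alg-1* probes, *ncl-1* with *gld-1* probes, *nhl-2* with PAR-XL, and *nhl-3* with *gfp* and *alg-1* probes. Below 1 in every scaling was *nhl-1* with PAR-XL, PFA-XL and *lin-41* probes. All other member ratios of an elution over its input, apart from *nhl-1* at 0 counts, changed side in at least 1 scaling.

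Before pulldown, 3 of the members were abundant and the other 2 were not. *lin-41* had 100.5 TPM in the PAR-XL input and 93.8 TPM in total RNA. In the DG3913 input the tagged *gfp::lin-41* entries held 146 TPM and untagged *lin-41* had 0 counts, which fits the strain's label. The BS1080 cXL input had 175 TPM and the N2 cXL input 205 TPM. *lin-41* thus differed 2.18-fold between its lowest and highest library, and its 5 levels were all separated by more than counting error.

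*ncl-1* was the steadiest member. It had 108 TPM in the PAR-XL input, 113 TPM in total RNA, 94.9 TPM in the DG3913 input, 89.4 TPM in the BS1080 cXL input and 94.4 TPM in the N2 input, a span of 1.26-fold. The DG3913 and N2 inputs were not separated by counting error. *nhl-2* followed at 62.9, 69.4, 98.1, 78.6 and 89.0 TPM in the same order of libraries, with the PAR-XL input lowest and DG3913 highest.

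*nhl-3* and *nhl-1* were low throughout. *nhl-3* had 10.7 TPM in the PAR-XL input, 11.6 TPM in total RNA, 9.11 TPM in the DG3913 input, 10.1 TPM in the BS1080 cXL input and 12.2 TPM in the N2 input, and no neighbours in this order of levels were separated by counting error. *nhl-1* had 12.03 TPM in the PAR-XL input and 12.8 TPM in total RNA, against 4.36, 3.91 and 4.40 TPM in the DG3913, BS1080 and N2 cXL inputs. The PAR-XL input and total RNA were both high and the cXL inputs all low, with no overlap.

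**Figure D1:**
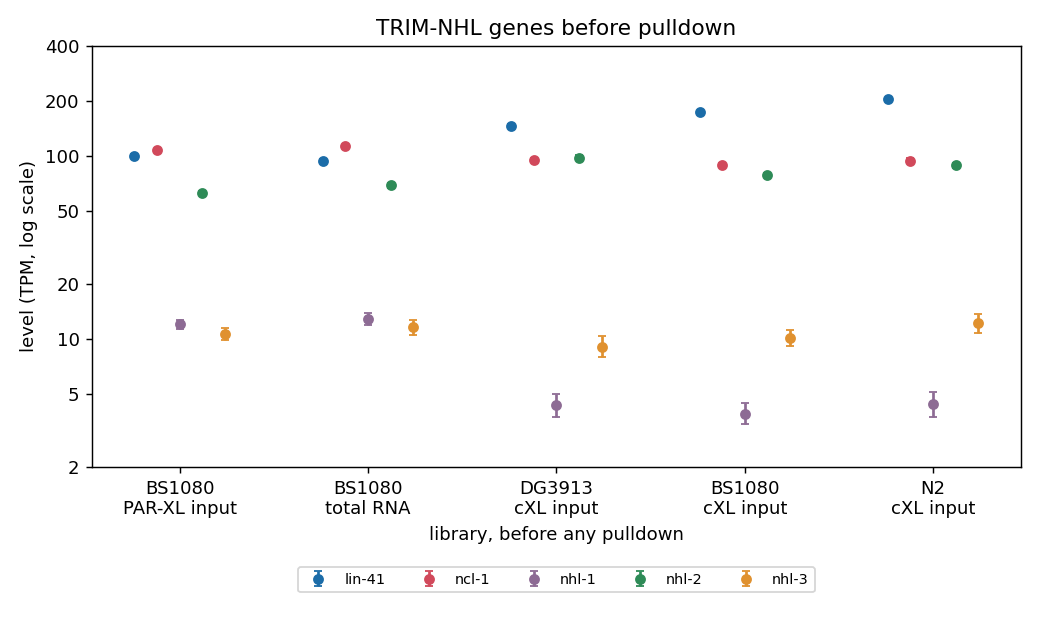
Level of each TRIM-NHL gene (TPM, log scale) in the 5 libraries that were not pulled down; points are single libraries and bars are 95% Poisson intervals of the estimated count. *lin-41* in DG3913 is the tagged form. *lin-41* is highest in the 3 cXL inputs and *nhl-1* in the PAR-XL input and total RNA.

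By size of ratio, *nhl-1* and *lin-41* differed more between the PAR-XL and cXL inputs of BS1080 than between BS1080 or DG3913 and N2. Between the PAR-XL and cXL inputs of BS1080, *nhl-1* differed 3.07-fold (95% CI 2.67 to 3.54), and it was the only member past 2-fold, against 25.9% of the 13232 genes tested above that fold. *lin-41* went the other way at 0.576 (95% CI 0.562 to 0.590), where 3.94% of genes lay below one over the fold and the median gene stood at 1.19. Relative to the median gene, *nhl-1* was at 2.58 (19% of genes above 2-fold) and *lin-41* at 0.483 (6.66% below the inverse). The ratios of *ncl-1* (1.20), *nhl-3* (1.06) and *nhl-2* (0.800) were nearer to 1.

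Markers of other tissues moved between the same libraries. The summed level of 4 oocyte markers (*rme-2*, *puf-5*, *oma-1*, *cpg-1*) was 1583 TPM in the PAR-XL input and 1619 TPM in total RNA, against 2638 to 3131 TPM in the cXL inputs. Of these markers *oma-1* overlapped between the library types (111 and 151 TPM against 148 to 190 TPM). The summed level of 3 germline markers (*glh-1*, *pgl-1*, *gld-1*) was 482 and 487 TPM against 780 to 1159 TPM. Within this sum *gld-1* also differed between strains, and BS1080 carries the *gld-1::gfp* transgene. *gld-1* had 272 TPM in the BS1080 cXL input and was higher in the DG3913 (594 TPM) and N2 inputs. Without it the library types still differed. *glh-1* was at 159 and 150 TPM against 233 to 279 TPM, and *pgl-1* at 157 and 145 TPM against 249 to 313 TPM. The neuronal markers *rab-3*, *unc-17* and *unc-119* summed to 36.7 and 58.3 TPM against 11.2 to 22.6 TPM, and the sperm genes *msp-3* and *spe-11* to 119.4 and 162 TPM against 63.7 to 78.7 TPM. The yolk and intestine list summed to 1571 and 2250 TPM against 10365 to 14174 TPM, carried by the yolk genes *vit-2* and *vit-6*, while the gut esterase gene *ges-1* was at 26.8 and 28.0 TPM against 16.8 to 22.2 TPM. No marker of any list was at 0, and the body muscle genes overlapped between the library types. Of the cuticle genes, *col-19* overlapped (2066 and 1744 TPM against 1102 to 1980 TPM), while *dpy-7* was at 5.50 and 5.96 TPM against 0.199 to 0.653 TPM. The part of these shifts in the levels of *lin-41* and *nhl-1* was not tested. In whole worms, fewer cells of a type and less RNA per cell cannot be told apart.

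The strain comparisons moved the members less than 2-fold, but *lin-41* and *nhl-3* were among the lower genes in DG3913 over N2. In the DG3913 input over the N2 input, none of the 5 members was above 2-fold (12.4% of 11658 genes were) or below its inverse (1.06% were). *gfp::lin-41* stood at 0.715 of the N2 level of *lin-41* (95% CI 0.696 to 0.735) and *nhl-3* at 0.747 (95% CI 0.628 to 0.888), while *ncl-1* (1.01), *nhl-1* (0.991) and *nhl-2* (1.10) lay near 1. The median gene was at 1.29 in this comparison, so that relative to it all members were lower, *lin-41* at 0.554 and *nhl-2* at 0.854. Of the tested genes, 95.8% had a higher ratio than *lin-41* and 94.8% a higher ratio than *nhl-3*. In the BS1080 over the N2 cXL input the ratios ran between 0.827 for *nhl-3* and 0.948 for *ncl-1*, with the median gene at 0.991 and 2.67% of genes above and 2% below the fold. PAR-XL input and total RNA were as close, at 0.907 for *nhl-2* to 1.07 for *lin-41* (1.08% of 16126 genes above, 13.9% below).

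As the captured target, *lin-41* made up about the same share of both elutions. *gfp::lin-41* had 533276 TPM in the DG3913 elution and 146 TPM in its input, a ratio of 3647 (95% CI 3578 to 3717), and untagged *lin-41* had 0 counts. Endogenous *lin-41* had 535105 TPM in the N2 elution with *lin-41* probes and 205 TPM in the N2 input, a ratio of 2616 (95% CI 2564 to 2669). These were 53.3% and 53.5% of the rescaled TPM, and *lin-41* ranked first among the 7847 and 7345 genes tested. The ratio in DG3913 was 1.39 times that in N2 (95% CI 1.36 to 1.43). The elution levels were nearly equal and the input level of the tagged form was the lower one. The probes, the tag and the strain differ between these pulldowns and cannot be told apart.

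**Figure D2:**
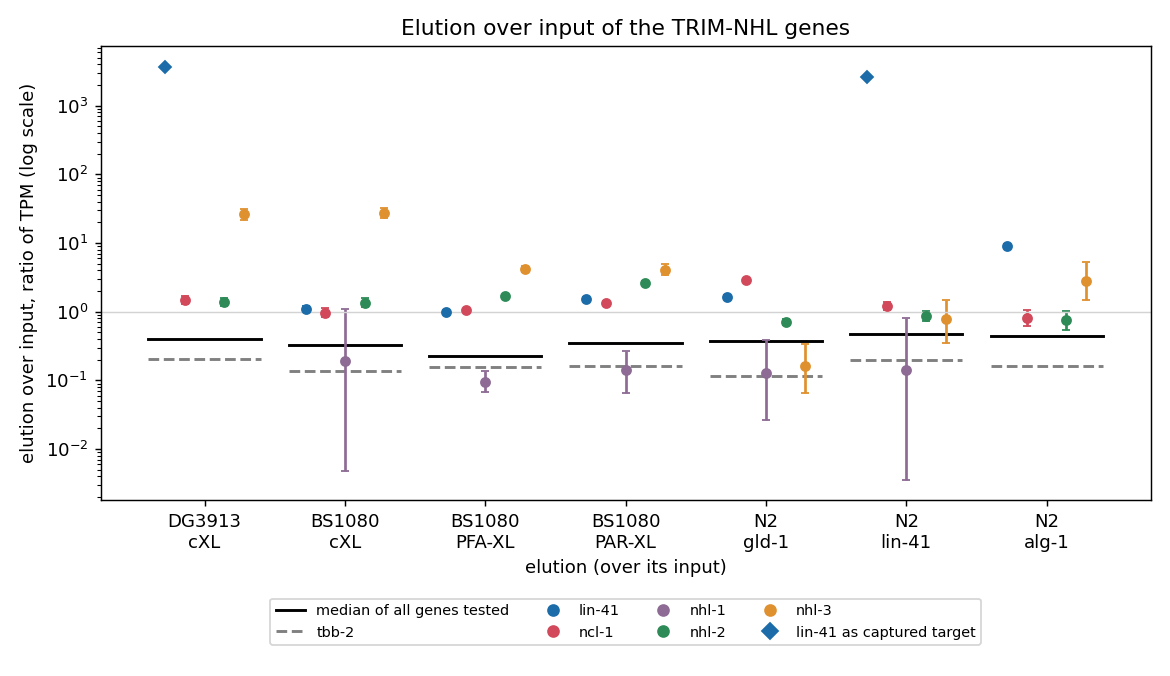
Elution over input ratio of TPM (log scale) for each TRIM-NHL gene in the 7 pulldowns, each point from 1 elution and 1 input library with its 95% Poisson interval; diamonds mark *lin-41* where it was the captured target. Black lines are the median gene and dashed lines *tbb-2*. *nhl-1* with 0 counts in the DG3913 and N2 *alg-1* elutions is not drawn. *nhl-3* lies far above the median in the 4 pulldowns with *gfp* probes.

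Where it was not the target, *lin-41* in rescaled TPM lay within 2-fold of its input level in 4 elutions, above most genes, and was far higher in 1. It had 193 TPM in the BS1080 cXL elution against 175 TPM in the input, 101 TPM with PFA-XL and 153 TPM with PAR-XL against 100.5 TPM, and 339 TPM with N2 *gld-1* probes against 205 TPM. Ratios were 1.11, 1.00, 1.52 and 1.66, or 3.35 to 4.41 times the median gene. Over the BS1080 cXL input, the PFA-XL and PAR-XL elutions stood at 0.578 and 0.877. With N2 *alg-1* probes *lin-41* reached 1857 TPM from 1222 estimated counts, 9.08 times its input (95% CI 8.55 to 9.63) and 20.6 times the median gene, and it ranked 26th of 3885 genes. That library had the fewest worm counts (282487), and the N2 *lin-41* elution holds 1153750 *lin-41* counts. Whether reads passed between libraries of this set was not tested.

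The index describes *lin-41* by long models (C12C8.3a.1 and a.2) and short models (C12C8.3b.1 and b.2) that differ mainly at the 3′ end. The a models run 922 bases further, from 9334850 to 9335771 on chromosome I, inside the 3′ UTR that Ensembl release 115 annotates at 9334808 to 9335964. In release 115 both forms reach this end (9334808 and 9334807) and their coding sequences differ by 12 bases, so the short 3′ end belongs to the older models (release 81) used for counting. The share of *lin-41* counts given to the a models thus rests largely on fragments from this last part of the 3′ UTR.

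This share was not the same in the libraries before pulldown. The a models took 86.0% of 12826 counts in the PAR-XL input and 92.3% of 7430 counts in total RNA. They took 74.9% in the DG3913 input, 55.7% in the BS1080 cXL input and 55.1% in the N2 input. By TPM, the a models were level between the PAR-XL and cXL inputs of BS1080 (83.4 and 87.1 TPM, ratio 0.957), and the b models carried the difference in *lin-41* (17.1 and 87.4 TPM, ratio 0.196, 95% CI 0.186 to 0.207). DG3913 over N2 was alike in kind, with the a models at 1.03 and the b models at 0.406 (95% CI 0.387 to 0.426).

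Elutions lay in a narrower band. The share was 49.5% in the DG3913 elution against 74.9% in its input, and 50.7% in the N2 *lin-41* elution against 55.1% in its input. In BS1080 it was 46.4% with PAR-XL, against 86.0% in its input, while the cXL elution (59.3%, 95% CI 54.1 to 64.4) overlapped its input (55.7%). The PFA-XL elution, from worms grown on plates, had 56.4%, below the PAR-XL input and near the BS1080 cXL input. The N2 *gld-1* and *alg-1* elutions had 53.3% and 39.9%. In DG3913 the a models rose 2294-fold over input and the b models 6989-fold. In N2 the values were 2379-fold and 2846-fold, so the target ratio of the tagged mRNA depended on the models much more than that of the endogenous mRNA.

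**Figure D3:**
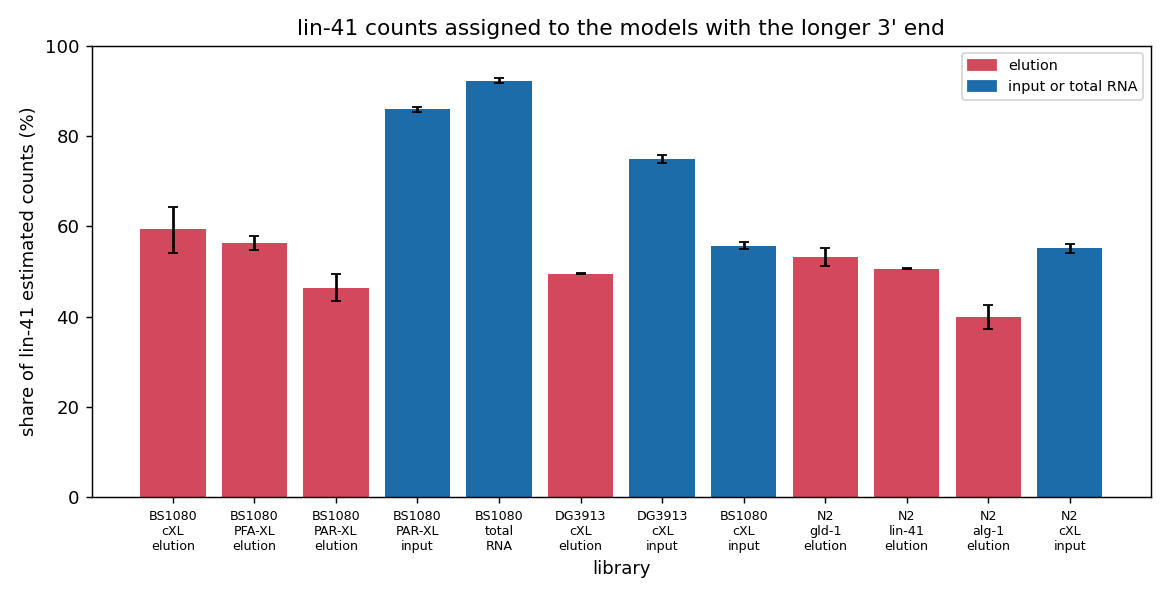
Share of *lin-41* estimated counts (%) assigned to the a models, whose 3′ end lies 922 bases further, in each of the 12 libraries; bars are single libraries with 95% Wilson intervals, elutions in red and libraries before pulldown in blue. The PAR-XL input, total RNA and the DG3913 input stand above all elutions.

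The intervals of these shares leave out the error of dividing reads between models. The size of this error was not estimated for the a and b shares. An uneven division was also seen at the 5′ end, where the models C12C8.3a.1 and b.1 start 53 bases further upstream than a.2 and b.2. The longer ones took at least 88.0% of *lin-41* counts in 11 libraries, but in the BS1080 cXL elution all 345 counts were assigned to a.2 and b.2.

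Among members that were not the target, *nhl-3* had the highest ratio in each pulldown with *gfp* probes. It had 238 TPM (189 counts) in the DG3913 elution and 9.11 TPM in its input, and 275 TPM (240 counts) in the BS1080 cXL elution and 10.1 TPM in its input. With PFA-XL it had 45.3 TPM (796 counts) and with PAR-XL 43.8 TPM (149 counts), against 10.7 TPM in the PAR-XL input. All 4 elutions were thus above every library before pulldown.

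The ratios were 26.1 in DG3913 (95% CI 21.6 to 31.6), 27.3 in BS1080 with cXL (95% CI 23.2 to 32.1), 4.24 with PFA-XL (95% CI 3.82 to 4.71) and 4.10 with PAR-XL (95% CI 3.43 to 4.90). *nhl-3* ranked 10th of 7847, 9th of 6699, 46th of 15597 and 57th of 11387 genes in these comparisons. The captured mRNA was different in the DG3913 and BS1080 cXL pulldowns, and the first ratio was 0.956 times the second (95% CI 0.745 to 1.23). The cXL ratio of BS1080 was 6.66 times the PAR-XL ratio (95% CI 5.23 to 8.48). The cXL elutions were depleted of ribosomal RNA with RNase H and those of PAR-XL and PFA-XL with the RiboMinus kit, and ribosomal RNA took 45.6% of worm TPM in the BS1080 cXL elution against 16.2% in the PAR-XL elution. With ribosomal RNA kept in the scaling the ratios were 16.4 and 4.06, and the part of depletion in the remaining difference was not tested. The PFA-XL and PAR-XL elutions held like levels (ratio 1.03, 95% CI 0.868 to 1.23). Over the BS1080 cXL input their ratios were 4.49 and 4.35.

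In N2, *nhl-3* was below its input by ratio with 2 of the 3 probe sets, but by its interval with *gld-1* probes only. It had 2.01 TPM (7 counts) with *gld-1* probes, 9.51 TPM (9 counts) with *lin-41* probes and 34.4 TPM (10 counts) with *alg-1* probes, against 12.2 TPM (271 counts) in the N2 input. The ratios were 0.164 (95% CI 0.0655 to 0.344), 0.779 (95% CI 0.353 to 1.5) and 2.82 (95% CI 1.5 to 5.30). The *alg-1* value lies above every library before pulldown and is 6.39 times the median gene, and its interval covers the PFA-XL and PAR-XL ratios with *gfp* probes. It rests on 10 counts: *nhl-3* would be expected at 6.26 counts from its input level, under the minimum of 10 set for a gene to be tested. Strain and probe set change together between the *gfp* and N2 pulldowns and cannot be told apart, and no *gfp* probe pulldown from N2 was analysed here.

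**Figure D4:**
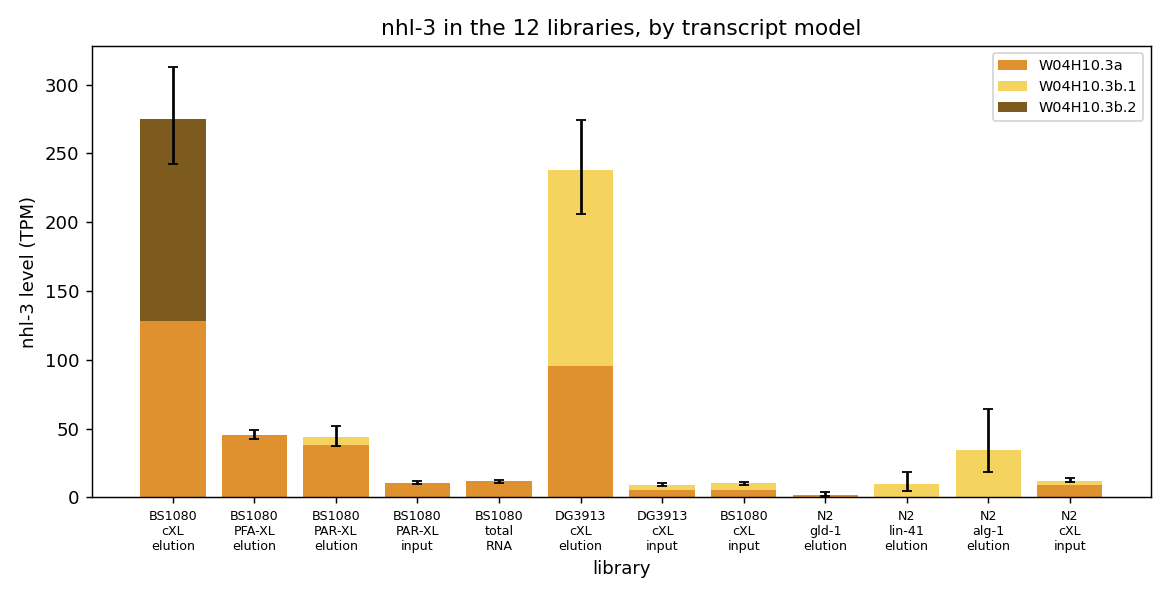
Level of *nhl-3* (TPM, linear scale) in the 12 libraries, each bar 1 library divided by transcript model, with 95% Poisson intervals of the gene's count. The BS1080 and DG3913 cXL elutions stand at 275 and 238 TPM and all libraries before pulldown at 9.11 to 12.2 TPM.

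Counts of *nhl-3* were divided between models in some libraries only, and not in the same way. W04H10.3a held 42.8% of the counts in the DG3913 elution (95% CI 36.0 to 49.9) and 59.2% in its input (95% CI 52.9 to 65.2), and 47.1% in the BS1080 cXL elution against 57.2% in its input. It held all counts in the PFA-XL elution, the PAR-XL input and total RNA, and 88.1% in the PAR-XL elution. The remaining counts went to W04H10.3b.1 in the DG3913 elution but to W04H10.3b.2 in the BS1080 cXL elution. Which models carried the rise cannot be told from this division.

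*nhl-2* was above its input in rescaled TPM with *gfp* probes and below it in N2, a difference that depends on the scaling. It had 136 TPM in the DG3913 elution against 98.1 TPM in the input, 106 TPM in the BS1080 cXL elution against 78.6 TPM, and 107 TPM with PFA-XL and 166 TPM with PAR-XL against 62.9 TPM. The ratios were 1.38, 1.35, 1.69 and 2.64, and all 4 intervals lay above 1. In N2 it had 63.9, 76.6 and 66.4 TPM with *gld-1*, *lin-41* and *alg-1* probes against 89.0 TPM in the input, with ratios of 0.718, 0.860 and 0.746, of which only the first has an interval below 1 (95% CI 0.647 to 0.796). All 7 ratios were above the median gene, by 1.69 to 7.53 times. By CPM, however, *nhl-2* was at 0.457 in DG3913, 0.626 in BS1080 with cXL, 0.773 with PFA-XL and 1.31 with PAR-XL, and with ribosomal RNA kept at 0.832 and 0.811 in DG3913 and BS1080 with cXL.

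*ncl-1* stood out with N2 *gld-1* probes. It had 270.0 TPM (2011 counts) there, 114.7 TPM (258 counts) with *lin-41* probes and 76.6 TPM (54 counts) with *alg-1* probes, against 94.4 TPM in the N2 input. The ratio with *gld-1* probes was 2.86 (95% CI 2.72 to 3.02), 2.35 times that with *lin-41* probes (95% CI 2.05 to 2.70). With *gfp* probes *ncl-1* had 142 TPM in DG3913, and 86.5, 114 and 145 TPM in BS1080 with cXL, PFA-XL and PAR-XL, at ratios of 1.49, 0.967, 1.06 and 1.35.

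By its ratio, *nhl-1* was the only member below the median gene in most elutions. Its counts there were few, at 0 in DG3913, 1 in BS1080 with cXL, 31 with PFA-XL and 9 with PAR-XL, and 3, 1 and 0 with N2 *gld-1*, *lin-41* and *alg-1* probes. With PFA-XL it had 1.16 TPM and with PAR-XL 1.71 TPM, against 12.03 TPM in the PAR-XL input, ratios of 0.0963 (95% CI 0.0674 to 0.138) and 0.143 (95% CI 0.0650 to 0.272). With the BS1080 cXL input below the line, where *nhl-1* was lower, they were 0.296 and 0.438. In DG3913 it was at least 1.87-fold lower than in the input, counted against a floor of 3 counts in the elution. The intervals of the BS1080 cXL ratio (0.193) and of the ratio with *lin-41* probes (0.142) reached 1.08 and 0.803, and in the *alg-1* elution a fall was not detectable at this depth. Over the median gene, the interval of *nhl-1* lay below 1 only with PAR-XL (95% CI 0.185 to 0.773) and PFA-XL (95% CI 0.296 to 0.604). Both of these ratios use the PAR-XL input. In BS1080 with cXL it reached 3.29.

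Counted over members that were not the target, 1 of 4 was above 2-fold in the DG3913 elution (*nhl-3*), where 1.26% of all tested genes were, and none could be shown to be below the inverse fold, where 62.5% were, since the bound of *nhl-1* (at least 1.87-fold lower) does not reach it. In BS1080, *nhl-3* alone of 5 members was above with cXL (1.61% of genes) and with PFA-XL (1.85%). *nhl-3* and *nhl-2* were above with PAR-XL (2.82%). By its ratio *nhl-1* alone was below in each (70.7, 72.6 and 62.7%). With cXL, however, *nhl-1* had 1 count and its interval reached 1.08, so a fall is not shown there either. In N2, *ncl-1* was above and *nhl-1* and *nhl-3* were below with *gld-1* probes (2.77 and 63.1%). None of 4 was above and *nhl-1* was below with *lin-41* probes (4.37 and 52.5%), by a ratio from 1 count with an interval reaching 0.803. With *alg-1* probes 3 of 5 could be tested, of which *lin-41* was above and none was below (3.24 and 56.9%). The median member ratio was 0.718 to 1.52 in the 7 comparisons, and that of all tested genes 0.228 to 0.473. Between elutions of BS1080, none of 4 testable members passed 2-fold either way in PFA-XL over PAR-XL (1.64% above, 10.6% below), and *nhl-3* alone did in cXL over PAR-XL (6.28-fold; 2.72% above, 23.6% below).

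Set against the median gene, 3 of 4 members were above 2-fold in the DG3913 elution (15.8% of genes were) and none could be shown to be below (22.5%), *nhl-1* being at 0 counts. In BS1080 the same 4 of 5 members, all but *nhl-1*, were above with cXL (18%), PFA-XL (30.5%) and PAR-XL (24.4%). *nhl-1* was below the inverse fold with PFA-XL (0.422; 33.2% of genes) and PAR-XL (0.406; 29%) and at 0.584 with cXL, where no member was below (23.3%). With N2 *gld-1* probes *lin-41* and *ncl-1* were above (20.3%) and *nhl-1* and *nhl-3* below (24.3%). With *lin-41* probes *ncl-1* was above (19.8%) and *nhl-1* below (23.8%). With *alg-1* probes *lin-41* was above (18.6%) and no testable member below (20.5%). The values of *nhl-1* with *gld-1* and *lin-41* probes rest on 3 counts and 1 count, and their intervals over the median gene reach 1.01 and 1.70.

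The study's control transcript, the beta-tubulin gene *tbb-2*, had elution over input ratios of 0.114 to 0.207, below the median gene in every pulldown. Relative to *tbb-2*, *nhl-3* was raised 126-fold in DG3913 and 200.2-fold in BS1080 with cXL.

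Genes with related functions were followed as lists. Of 9 mRNAs known as LIN-41 targets, between 4 and 8 could be tested in an elution and none was above 2-fold in any, while 2 to 6 were below the inverse fold. Over all tested genes 1.26 to 4.37% were above and 52.5 to 72.6% below. *spn-4*, which encodes a maternal RNA-binding protein, was below the inverse fold in all 7 pulldowns, at 0.218 to 0.358. The median of the list was 0.195 to 0.813, on either side of the median of all genes. In the DG3913 over the N2 input, 2 of 7 testable targets were above 2-fold, *lin-29* (2.86), a zinc finger factor of the larval-to-adult switch, and *cdc-25.3* (2.01), against 12.4% of all tested genes. The list median was 1.41 and that of all genes 1.29.

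Among 12 partners of these proteins or of microRNA silencing, 0 to 2 were above 2-fold in an elution and 3 to 8 below the inverse, beside the same shares of all tested genes (1.26 to 4.37% and 52.5 to 72.6%). *fib-1*, which encodes the nucleolar methyltransferase fibrillarin, was above in 4, at 2.26 in DG3913, 2.36 with PFA-XL, 3.1 with PAR-XL and 2.69 with N2 *lin-41* probes. It was at 1.05 in BS1080 with cXL, 1.53 with N2 *gld-1* probes and 1.33 with *alg-1* probes. The PFA-XL and PAR-XL ratios depend on the input. *fib-1* had 447 and 587 TPM in these elutions, against 189 TPM in the PAR-XL input and 527 TPM in the BS1080 cXL input. The Argonaute gene *alg-1* was at 6.65 with N2 *lin-41* probes, and *alg-2* at 44.1 with the probes to its paralog *alg-1*. *alg-1* had 364 counts with *lin-41* probes and was itself the target of the N2 *alg-1* elution, with 138491 counts there. Whether reads passed between these libraries was not tested. *cgh-1*, a DEAD-box helicase gene that acts with NHL-2, was at 0.686 in DG3913, 0.358, 0.679 and 0.548 in BS1080 with cXL, PFA-XL and PAR-XL, and 0.244 to 0.384 in the 3 N2 pulldowns.

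Of 2 TRIM genes without NHL repeats, *trim-21* had too few counts to be tested. *madd-2*, known for muscle arm and axon guidance, was raised with *gfp* probes even more than *nhl-3*. It had 1564 TPM in the DG3913 elution against 4.55 TPM in its input, a ratio of 344, and 90.2-fold and 133-fold values with PFA-XL and PAR-XL. In N2 it was at 0.413 with *gld-1* probes and 0.587 with *lin-41* probes. It had too few expected counts to be tested in the BS1080 cXL and N2 *alg-1* elutions. In the BS1080 cXL elution it nevertheless had 1337 TPM (1294 counts) against 4.39 TPM in the input, a ratio of 305. In the N2 *alg-1* elution it had 3 counts.

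Likeness of pattern was measured as the root mean square difference of log2(TPM + 1), each gene centred on its own mean over the 12 libraries, among 11401 genes with at least 1 TPM before pulldown. It is dominated by the elutions. The genes nearest to *nhl-3* were *cdka-1* (0.58) and C41D11.3 (0.79), where the median over all genes was 2.44. *nhl-2* was nearest to *mbk-2* (0.26), a kinase gene of the oocyte-to-embryo transition, and *pacs-1* (0.26), and *ncl-1* to F43E2.1 (0.27) and *ntp-1* (0.29). *nhl-1* was nearest to *bli-3* (0.27), a dual oxidase gene of the cuticle, and F53F10.1 (0.28). *lin-41*, with its 2 captures, had no near neighbour, and WBGene00016229 (3.30) and *panl-3* (3.34), a subunit gene of the poly(A) nuclease PAN, were first. Among the members, *ncl-1* and *nhl-2* were the most alike, at 0.61. Over the 5 libraries before pulldown alone, none of these 10 genes remained among the nearest.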

How the data were processed

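Worm RNA from 12 libraries was sequenced by the authors (the labels name a stranded kit, the methods a TruSeq kit not described as stranded), and the reads were demultiplexed with bcl2fastq. Estimated counts and TPM per transcript were deposited by the authors as kallisto 0.43.1 output (single-end), against WBcel235 Ensembl release 81 with the tagged sequences, ERCC spike-ins and human GENCODE release 24. Inputs were depleted of worm ribosomal RNA and cXL elutions of human ribosomal RNA with RNase H, and PAR-XL and PFA-XL elutions were depleted with RiboMinus. As deposited, the TPM of a library add up to 1000000 with human and ribosomal entries included.

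Here TPM were rescaled to 1000000 over worm entries after 22 ribosomal RNA entries had been removed, and summed per gene. A gene was tested where the second library held at least 10 estimated counts and at least 10 were predicted for the first at its depth, and a TPM ratio past 2 or 0.5 was counted. Ratios have 95% Poisson intervals on the log scale (exact conditional where a count was under 10), shares have Wilson intervals, and a floor of 3 counts stands for 0 in members, while the shares of all genes below the fold include genes at 0. With 1 library per group no p-value was computed. All members were described, and from the lists those past 2-fold (all else in counts and ranges), with the 2 genes nearest in pattern. The members and lists were chosen with earlier results of these data known. Alternatives were CPM, ribosomal RNA kept, overlapping entries or the captured target left out, division by the median gene or *tbb-2*, the BS1080 cXL input as denominator for PAR-XL and PFA-XL, 30 counts, TPM above 1, 4-fold and a pseudocount of 0.1 in place of 1. Tools were matplotlib 3.10.9, scipy 1.17.1, pandas 2.3.3 and numpy 2.4.6 under Python 3.11.15. The interval calculation was tried on simulated Poisson counts, the model it assumes, so library error and the division of reads were not covered. Gene structures of Ensembl release 115 come from the same assembly.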

Additional observations from a re-analysis of the deposited data

Results flagged for a closer look

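Of 10 groups of libraries examined for one that stood far from the rest, 3 had one. The rule flags about 1 in 20 by chance only where the libraries of a group are alike. *lin-41* had 1857 TPM in the N2 *alg-1* elution, and the next of the 5 elutions in which it was not the target had 339 TPM. *ncl-1* had 270.0 TPM in the N2 *gld-1* elution, and the next of the 7 elutions had 145 TPM. *nhl-1* had 12.03 TPM in the PAR-XL input, and the next of the 4 inputs had 4.40 TPM. The other 3 inputs were cXL libraries, and total RNA, outside this group, had 12.8 TPM. These groups join libraries of different strains and treatments, so 3 of 10 cannot be set against the rate of 1 in 20.

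In rescaled TPM, *nhl-2* lay on opposite sides of its input in the *gfp* and N2 pulldowns. Its elution over input ratio was 1.35 to 2.64 in the 4 pulldowns with *gfp* probes, all above 1, and 0.718 to 0.860 in the 3 N2 pulldowns, all below 1. The sides depend on the scaling. Over the median gene all 7 ratios were above 1, with 1.69 to 1.89 in N2, and by CPM 3 of the 4 *gfp* ratios were below 1 (0.457, 0.626 and 0.773). The difference was not tested, and 2 of the *gfp* ratios share an input, as do all 3 N2 ratios.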

How the results depend on the processing

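No paired analysis was possible because each group holds 1 library. The captured *lin-41* ratio (3647 in DG3913, 2616 in N2) was 1149 and 973 by CPM, 2196 and 1383 with ribosomal RNA kept, 3931 and 2826 without overlapping entries, 7813 and 5626 without the target in the scaling, 9238 and 5533 over the median gene, and 17649 and 13355 over *tbb-2*. The *nhl-3* ratio (26.1 in DG3913, 27.3 in BS1080 with cXL) was 8.45 and 13.2, 15.7 and 16.4, 28.1 and 31.6, 55.9 and 62.5, 66.1 and 82.7, and 126 and 200.2 in the same order. Of 368 alternatives to 63 member ratios, 149 stayed within the main interval, 216 moved, and 3 that were past 2-fold turned direction with *tbb-2* scaling: *nhl-1* in BS1080 with cXL (1.41 for 0.193), *nhl-1* (1.13 for 0.129) and *nhl-3* (1.44 for 0.164) with N2 *gld-1* probes. Counting ratios of any size, 65 of the 368 lay on the other side of 1. Of 226 alternative counts of genes past the fold, 107 were within 1.5 times of the main count and the rest moved further. Genes above the fold numbered 99 to 321 in the 7 pulldowns, 21 to 82 by CPM, 37 to 314 with ribosomal RNA kept, 35 to 65 at 4-fold, 46 to 274 with 30 counts, 279 to 977 with TPM above 1, 191 to 2110 without the target, 723 to 4760 over the median gene and 2529 to 6432 over *tbb-2*. Genes below numbered 2212 to 11321, and 955 to 8184 at 4-fold, 796 to 5176 over the median gene and 180 to 4135 over *tbb-2*. With a pseudocount of 0.1, 7 of the 10 genes nearest in pattern remained. Depth limits *nhl-1* (0 to 31 counts per elution) and *nhl-3* in N2 (7 to 10).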

Other observations

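An equal value appeared in a pair of separate files. C12C8.3b.1tg in the DG3913 elution and C12C8.3a.1 in the N2 *lin-41* elution both had 577316 estimated counts after rounding. Their partners C12C8.3a.1tg and C12C8.3b.1 had 566038 and 567088.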
